A study of Mus musculus with 12 samples.

Results

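The 39 genes described here are interferon-stimulated genes, chosen by name as genes whose transcription is known to rise when a cell senses type I, II or III interferon. All 39 were found among the 31060 genes of the deposited count table and all 39 passed the filter on low counts, which kept 15630 genes. RNA was sequenced from bone marrow cells of C57BL/6 mice after depletion of cells with markers of mature blood lineages (Lin-negative cells), a fraction rich in stem and progenitor cells. By genotype there were 4 groups, namely wild type (WT, 3 libraries), Tet2+/- (1 disrupted allele of Tet2, an enzyme that oxidises 5-methylcytosine, 3 libraries), Ins2Akita/+ (a dominant insulin allele that damages pancreatic beta cells and raises blood glucose, 2 libraries) and Tet2+/-;Ins2Akita/+ (both alleles, called the double mutant, 3 libraries). The labels name no treatment, give no age, and do not say how the Tet2 allele was made or in which cells it is disrupted. Whether libraries with the same genotype are separate animals is not stated, so every p-value measures the spread between these libraries, which may be technical. One more double mutant sample was not analysed here. Of the 39 genes 38 are annotated as protein coding, on 14 chromosomes.

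Interferons bind receptors that activate the kinases JAK1 and TYK2. These phosphorylate STAT2, which joins IRF9 in a complex (ISGF3) that binds the interferon-stimulated response element (ISRE) in DNA. Interferon gamma acts mainly through another element, the gamma-activated site (GAS). The induced genes encode sensors of viral RNA and DNA, enzymes that block viral replication, the ubiquitin-like protein ISG15 and guanylate-binding GTPases that attack intracellular pathogens. In bone marrow, interferon is known to drive quiescent stem cells into cycle, and plasmacytoid dendritic cells are a strong source of type I interferon.

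Promoters of 29 of the 39 members had an entry in the RefSeq table for GRCm38.p6, which gives 250 bases before to 50 bases after each transcription start. The core of the ISRE was searched as GAAANNGAAA on both strands, and overlapping matches were counted. It occurred in the windows of 17 of these 29 members, against 3.99% of the 27025 genes in the table. The GAS core TTCNNNGAA, which reads the same on both strands, occurred in 6 of the 29, against 9.55% of genes. The ISRE core lay before the start in 15 of the 17 members and only after it in Ddx58 and Ifih1. A match is a run of letters, not evidence of binding. The 250 bases before the start are printed below for Rsad2, Bst2, Irgm1 and Ifi203, which were called in alternative tests given below and held a core before the start. Of the other members called there, Irf9 and Ifi44 held no core, Ifih1 held it only after the start, and Ifi27l2a and Mx2 had no entry. Also printed are Isg15, which had the most matches, and Cmpk2, the neighbour of Rsad2, which had none. Capitals mark ISRE cores, and every sequence reads 5′ to 3′ on the strand of the gene.
Rsad2: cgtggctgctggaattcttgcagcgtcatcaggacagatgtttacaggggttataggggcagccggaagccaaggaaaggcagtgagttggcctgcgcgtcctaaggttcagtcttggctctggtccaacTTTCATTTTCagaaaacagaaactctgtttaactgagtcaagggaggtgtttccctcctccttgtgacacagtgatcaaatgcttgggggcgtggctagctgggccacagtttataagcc
Cmpk2: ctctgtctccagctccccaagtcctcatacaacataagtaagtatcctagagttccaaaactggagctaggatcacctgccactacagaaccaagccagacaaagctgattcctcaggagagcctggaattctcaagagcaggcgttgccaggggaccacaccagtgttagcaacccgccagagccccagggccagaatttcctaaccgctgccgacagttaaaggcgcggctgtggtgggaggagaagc
Isg15: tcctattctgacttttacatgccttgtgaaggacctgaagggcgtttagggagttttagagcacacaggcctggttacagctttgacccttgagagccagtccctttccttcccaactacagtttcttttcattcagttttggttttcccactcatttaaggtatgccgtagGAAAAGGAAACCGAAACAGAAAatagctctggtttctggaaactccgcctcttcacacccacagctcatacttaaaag
Bst2: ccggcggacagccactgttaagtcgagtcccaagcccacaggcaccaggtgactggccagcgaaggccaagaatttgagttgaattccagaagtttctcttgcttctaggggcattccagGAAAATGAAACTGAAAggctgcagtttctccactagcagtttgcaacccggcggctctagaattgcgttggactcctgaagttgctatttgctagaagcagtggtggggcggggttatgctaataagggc
Irgm1: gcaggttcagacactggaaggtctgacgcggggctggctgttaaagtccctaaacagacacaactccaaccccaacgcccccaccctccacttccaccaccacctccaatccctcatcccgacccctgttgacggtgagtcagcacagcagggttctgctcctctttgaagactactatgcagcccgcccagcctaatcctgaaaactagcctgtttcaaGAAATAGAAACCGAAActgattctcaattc
Ifi203: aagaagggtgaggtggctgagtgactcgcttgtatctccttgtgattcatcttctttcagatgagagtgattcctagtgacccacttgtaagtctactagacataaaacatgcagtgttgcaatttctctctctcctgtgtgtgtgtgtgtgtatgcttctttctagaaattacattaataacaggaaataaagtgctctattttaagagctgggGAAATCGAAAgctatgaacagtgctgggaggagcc
These windows are chr12:26456453-26456702, minus strand for Rsad2, chr12:26468965-26469214, plus strand for Cmpk2, chr4:156200819-156201068, minus strand for Isg15, chr8:71537473-71537722, minus strand for Bst2, chr11:48871421-48871670, minus strand for Irgm1 and chr1:173942493-173942742, minus strand for Ifi203. Counting the base before the start as -1, Isg15 held 3 overlapping cores from -78 to -57, Bst2 held 2 from -130 to -115, and Irgm1 held 2 from -30 to -15. In Rsad2 the match lay on the opposite strand. Ifi203 has a second start in the table, whose window held none, and neither window of Irf9 held an ISRE or a GAS core.

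Total counts per library were 14814409 to 22600405. The libraries numbered 3 of WT, Tet2+/- and the double mutant stood apart: mitochondrially encoded genes took 3.43%, 4.46% and 9.76% of their counts, against 1.36% to 1.94% in the other 8, and no Ins2Akita/+ library carries that number. Tet2 was read as a check of the labels. Its level in CPM, which are counts relative to library size with TMM factors, was 91.2, 128 and 45.1 in WT, 19.0, 18.5 and 19.3 in Tet2+/-, 131 and 107 in Ins2Akita/+ and 66.5, 108 and 34.2 in the double mutant. The libraries labelled double mutant thus did not show the low Tet2 of those labelled Tet2+/-, and every direction below is one between libraries carrying these labels.

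Interferon-stimulated genes were expressed in all 4 groups at low to moderate levels, and as a set they stood at nearly the same height in every library. Per kilobase of exon, Bst2 (tetherin, a membrane protein that holds budding virus on the cell) was the highest, with a mean of 92.1 CPM per kb over 11 libraries, followed by Isg15 at 23.1 CPM per kb and Ifi27 at 17.9 CPM per kb. The lowest were Phf11d at 0.237 CPM per kb and Ifi44 at 0.227 CPM per kb. The module score, the mean over members of log2 CPM minus its mean over libraries, was -0.22, 0.17 and -0.15 in WT, 0.15, 0.18 and 0.14 in Tet2+/-, 0.11 and -0.13 in Ins2Akita/+ and -0.08, 0.09 and -0.25 in the double mutant. The groups overlapped on this score, except that each Tet2+/- value lay above every Ins2Akita/+ and double mutant value. Single members spread far more than the score, in opposite directions within one library.

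**Figure D1:**
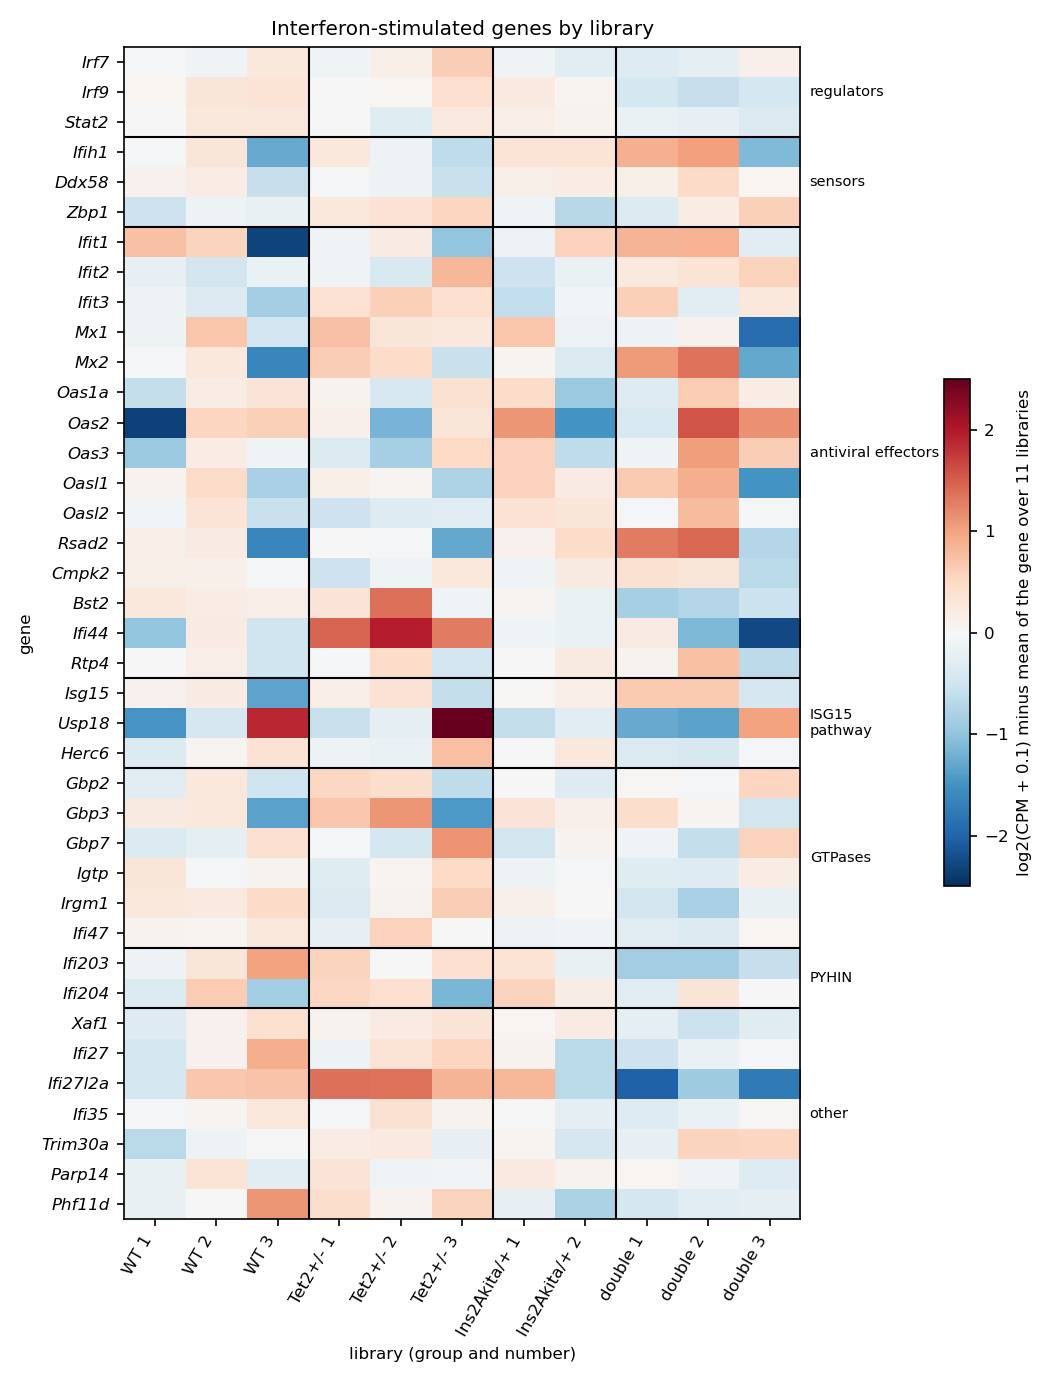
Heat map of the 39 members (rows, ordered by role) in 11 libraries (columns, by genotype and library number). Colour is log2(CPM + 0.1) minus the mean of the gene over all libraries, and values beyond 2.5 either way take the end colour. Libraries numbered 3 differ from numbers 1 and 2 in several rows, Irf9 and Ifi203 are low in the double mutant, and Ifi44 is high in Tet2+/-.

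The libraries numbered 3 divided the members. In WT, Tet2+/- and the double mutant alike, number 3 lay above numbers 1 and 2 for 9 members (Irf7, Irf9, Ifit2, Usp18, Herc6, Gbp7, Irgm1, Ifi27 and Phf11d) and below both for 10 (Ifih1, Ddx58, Ifit1, Mx1, Mx2, Oasl1, Rsad2, Rtp4, Isg15 and Gbp3). Over all genes tested these shares were 25.5% above and 25.4% below, so the members' shares are near the background. Usp18, the protease that removes ISG15 from proteins and blocks the interferon receptor, was among those with a wide gap, at 9.13 CPM in WT 3 against 0.81 and 1.79 in WT 1 and 2. It was at 24.3 CPM in Tet2+/- 3 against 1.61 and 2.02, and at 4.94 CPM in double mutant 3 against 0.95 and 0.90. The values of number 3 therefore stand beside each result that they touch.

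No member passed the edgeR quasi-likelihood test at a Benjamini-Hochberg adjusted p under 0.05 in any of 6 comparisons. Over all 15630 genes the share called was 0.0256% in Tet2+/- against WT, 0% in Ins2Akita/+ against WT and 0.0448% in the double mutant against WT. It was 0.262% in the double mutant against Tet2+/-, 0.0384% in the double mutant against Ins2Akita/+ and 0% for the interaction (the Akita difference with Tet2+/- minus that without). At an unadjusted p under 0.05, 2 of 39 members were higher in Tet2+/- than in WT, where 2.12% of all genes passed in either direction, and 0 differed between Ins2Akita/+ and WT, where 0.429% did. In the double mutant 6 members were lower than in WT (8.79% of all genes either way), 6 were lower than in Tet2+/- (10.9%), 3 were lower than in Ins2Akita/+ (6.60%), and 3 had a negative interaction (3.44%). No member was higher at that level in any comparison with the double mutant. Limma voom called no member in any comparison, and DESeq2 called none in Tet2+/- against WT, Ins2Akita/+ against WT, the double mutant against Ins2Akita/+ or the interaction. The DESeq2 calls in the double mutant against WT (2.61% of all genes called) and against Tet2+/- (3.45%) are given with the genes.

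Same-numbered libraries of WT, Tet2+/- and the double mutant deviated together, so a fit with the library number as a block applies to these 3 groups. With that block 2 members were called in the double mutant against WT (1.63% of all genes called) and 5 against Tet2+/- (4.50%). Without the 3 libraries numbered 3, 5 members were called against WT (3.44% of all genes called), 6 against Tet2+/- (7.71%) and 3 against Ins2Akita/+ (2.89%). The calls went both ways: Irf9, Irgm1, Ifi203, Ifi27l2a, Bst2 and Ifi44 were lower in the double mutant, and Rsad2, Ifih1 and Mx2 were higher.

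**Figure D2:**
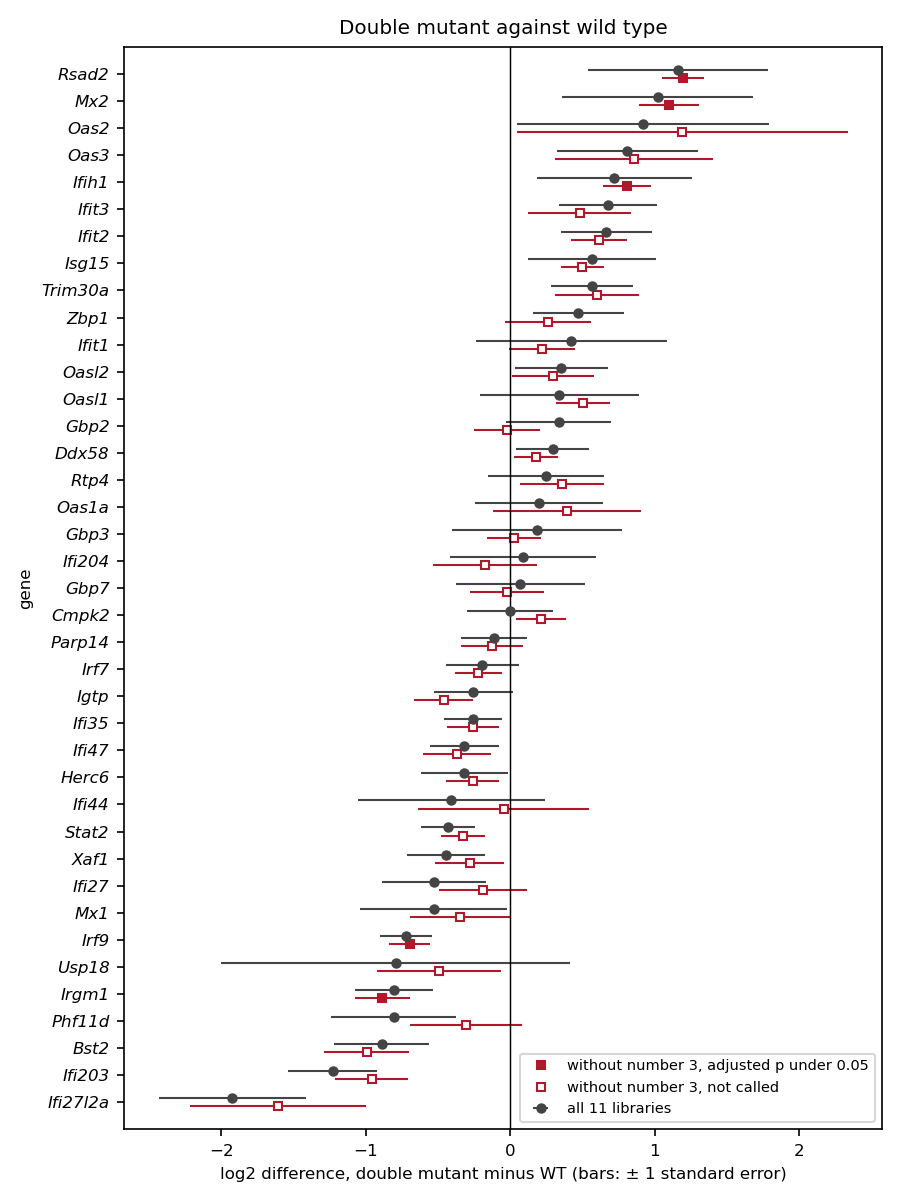
Log2 difference of each member between double mutant and WT (x axis; bars are 1 standard error), from all 11 libraries (grey circles) and without the libraries numbered 3 (red squares, filled where the adjusted p was under 0.05). Members lie on both sides of 0, from -1.92 for Ifi27l2a to 1.16 for Rsad2, and the bars of Rsad2, Mx2 and Ifih1 are shorter without number 3.

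Of the regulators, Irf9 was the one that separated the double mutant from all other libraries. Irf9 encodes the DNA-binding subunit of ISGF3 (ENSMUSG00000002325.14, protein coding, GRCm38 chromosome 14, 55603571 to 55610030, plus strand). Its level was 66.0, 79.8 and 81.3 CPM in WT, 64.4, 66.8 and 85.5 CPM in Tet2+/-, 75.9 and 66.9 CPM in Ins2Akita/+ and 47.0, 42.9 and 47.5 CPM in the double mutant. Every double mutant library lay below every other library. The log2 difference of the double mutant was -0.72 from WT (SE 0.18, adjusted p = 0.201 by edgeR), -0.66 from Tet2+/- (SE 0.18, adjusted p = 0.203) and -0.64 from Ins2Akita/+ (SE 0.20, adjusted p = 0.513). With the replicate block Irf9 was called lower than in WT (-0.72, SE 0.14, adjusted p = 0.0473 by edgeR) and than in Tet2+/- (-0.65, SE 0.14, adjusted p = 0.0414). DESeq2 called both as well (adjusted p = 0.00643 and 0.0144), and without number 3 edgeR called it lower than in WT (-0.70, adjusted p = 0.0399) and in Ins2Akita/+ (-0.67, adjusted p = 0.0481). Exons of Rnf31, a ubiquitin ligase gene on the same strand, overlap those of Irf9 in the annotation, so reads there may be assigned to either. Rnf31 itself was at 46.2, 50.9 and 65.6 CPM in WT and 47.3, 46.0 and 46.0 CPM in the double mutant (a log2 value of -0.22, SE 0.20, adjusted p = 0.849 by edgeR).

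Stat2, which pairs with IRF9 in ISGF3, was at 42.4, 51.0 and 51.4 CPM in WT and 37.7, 36.6 and 33.1 CPM in the double mutant. These groups did not overlap, but the difference of -0.43 (SE 0.19) had an adjusted p of 0.546 by edgeR, and no alternative called it. Stat2 was at 42.7, 34.5 and 50.6 CPM in Tet2+/- and 47.6 and 44.9 CPM in Ins2Akita/+. Irf7, the factor that amplifies transcription of the interferon alpha genes, did not separate the groups. It was at 17.4, 16.6 and 21.4 CPM in WT, 16.4, 19.6 and 27.5 CPM in Tet2+/-, 16.8 and 14.9 CPM in Ins2Akita/+ and 14.2, 15 and 19.3 CPM in the double mutant, highest in number 3 of each group that has one.

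Of the nucleic acid sensors, Ifih1 (MDA5, a cytoplasmic receptor for long double-stranded RNA) was higher in double mutant libraries 1 and 2 and low in every library numbered 3. It was at 43.6, 54.7 and 18.5 CPM in WT, 52.9, 40.6 and 28.3 CPM in Tet2+/-, 56.2 and 55.9 CPM in Ins2Akita/+ and 81.5, 90.7 and 20.4 CPM in the double mutant. The difference from WT was 0.72 (SE 0.54, adjusted p = 0.816 by edgeR) with all libraries and 0.81 (SE 0.17, adjusted p = 0.0437) without number 3. Against Tet2+/- it was called without number 3 as well (0.88, SE 0.17, adjusted p = 0.0210 by edgeR), although within number 3 alone it lay the other way (-0.47). Ddx58 (RIG-I, which senses short RNA with a 5′ triphosphate) ranged from 17.7 to 30.2 CPM in WT and from 27.3 to 37.0 CPM in the double mutant (log2 change 0.30, SE 0.25). Zbp1, a sensor of Z-form nucleic acid that can trigger necroptosis, was at 3.83, 5.08 and 4.84 CPM in WT and 6.64, 7.12 and 8.07 CPM in Tet2+/-, without overlap (log2 difference 0.67, SE 0.32, adjusted p = 1 by edgeR).

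Among the 15 antiviral effectors, 8 lay higher in the double mutant than in WT within every library number and 1 lower. Over all genes tested, 22.2% lay higher in all 3 numbers and 25.7% lower, and the difference between these shares was not tested. Of these 8 effectors Rsad2 was the one called with the replicate block. Rsad2 encodes viperin, a radical SAM enzyme that makes a chain-terminating nucleotide (ENSMUSG00000020641.15, protein coding, chromosome 12, 26442746 to 26456452, minus strand). It was at 33.3, 34.4 and 9.62 CPM in WT, 29.7, 29.2 and 12.3 CPM in Tet2+/-, 32.3 and 40.8 CPM in Ins2Akita/+ and 74.0, 81.4 and 17.9 CPM in the double mutant. Number 3 was the lowest of each group that has one, so the groups overlapped, while the differences from WT within numbers 1 to 3 were 1.15, 1.24 and 0.89 on the log2 scale. The test with all libraries gave 1.16 (SE 0.62, adjusted p = 0.685 by edgeR). With the replicate block the difference was 1.11 from WT (SE 0.19, adjusted p = 0.0355 by edgeR) and 1.12 from Tet2+/- (SE 0.19, adjusted p = 0.0234), and both were called. Without number 3 it was called against WT (1.2, SE 0.15, adjusted p = 0.0112 by edgeR), Tet2+/- (1.40, adjusted p = 0.00427) and Ins2Akita/+ (1.09, adjusted p = 0.0156).

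Cmpk2, which encodes a mitochondrial nucleotide kinase that supplies the substrate of viperin, lies 12.8 kb from Rsad2 and showed no such difference. It was at 46.0, 45.2 and 40.8 CPM in WT and 54.5, 51.1 and 26.1 CPM in the double mutant (log2 change -0.00, SE 0.30, adjusted p = 0.998 by edgeR). In the promoters printed above the ISRE core was matched before Rsad2 and not before Cmpk2. Whether this bears on the levels of either gene was not tested. Mx2, one of the dynamin-like Mx GTPases and annotated as a polymorphic pseudogene, was at 11.8, 14.4 and 3.81 CPM in WT and 25.3, 30.8 and 4.88 CPM in the double mutant. It was called higher without number 3 against WT (1.10, SE 0.21, adjusted p = 0.0332 by edgeR) and against Ins2Akita/+ (1.36, SE 0.21, adjusted p = 0.0216), and not with all libraries against WT (1.02, SE 0.66, adjusted p = 0.774). In Tet2+/- Mx2 was at 18.4, 16.6 and 8.12 CPM, and the double mutant differed from that group by 0.50 (SE 0.66). Within numbers 1 to 3 this difference was 0.45, 0.89 and -0.72 on the log2 scale. Ifit2, an RNA-binding inhibitor of translation, lay above both WT and Ins2Akita/+ in every double mutant library, at 20.4, 21.6 and 25.5 CPM against 15, 12.4 and 15.2 CPM in WT and 12.0 and 15.3 CPM in Ins2Akita/+. Its difference from WT (0.67, SE 0.31) had an adjusted p of 0.609 by edgeR, and from Ins2Akita/+ (0.72, SE 0.36) one of 0.802.

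Bst2 differed from the effectors above in direction. Bst2 (ENSMUSG00000046718.7, protein coding, chromosome 8, 71534255 to 71537456, minus strand) was at 91.5, 86.2 and 85.8 CPM in WT, 94.9, 197 and 70.6 CPM in Tet2+/-, 79.8 and 67.5 CPM in Ins2Akita/+ and 43.1, 46.1 and 52.9 CPM in the double mutant. Every double mutant library lay below all others. The log2 difference was -0.89 from WT (SE 0.33, adjusted p = 0.425 by edgeR) and -1.35 from Tet2+/- (SE 0.33, adjusted p = 0.163). Against Tet2+/- it was called by DESeq2 (-1.34, adjusted p = 0.0140), without number 3 (-1.71, adjusted p = 0.0171 by edgeR) and without Tet2+/- replicate 3 alone (-1.62, adjusted p = 0.0491). Bst2 is also a surface marker of plasmacytoid dendritic cells. The mean score of the other 11 markers of that cell type was also lowest in the double mutant libraries. This score was 0.46, 0.37 and -0.03 in WT, 0.81, 1.32 and -0.21 in Tet2+/-, 0.37 and 0.31 in Ins2Akita/+ and -0.96, -0.91 and -1.55 in the double mutant. Not every marker followed the score. Tlr7, a marker on that list, was higher in the double mutant within each library number. It was at 13.1, 13.6 and 4.05 CPM in WT and 18.8, 23.2 and 7.99 CPM in the double mutant. The part of these cells in the level of Bst2 was not tested. In RNA from a mixed fraction fewer cells of a type and less RNA per cell cannot be told apart.

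The other antiviral effectors overlapped between the double mutant and WT and were not called. The log2 differences of Ifit1, Ifit3, Mx1, Oas1a, Oas2, Oas3, Oasl1, Oasl2, Ifi44 and Rtp4 lay between -0.53 (Mx1) and 0.92 (Oas2), with adjusted p of 0.650 or more by edgeR, and of 0.310 or more with the replicate block. Within library numbers Ifit1 (0.13, 0.31 and 2.03), Ifit3 (0.72, 0.09 and 1.12), Oas2 (1.94, 1.02 and 0.54), Oas3 (0.83, 0.86 and 0.72) and Oasl2 (0.04, 0.46 and 0.52) all lay above 0 on the log2 scale. The oligoadenylate synthetase genes Oas2 and Oas3, which make the activator of RNase L, spread widely within groups: Oas2 was at 0.71, 5.83 and 6.05 CPM in WT and 3.01, 11.9 and 8.87 CPM in the double mutant. Oasl2, a relative of these enzymes, was at 8.26, 11 and 5.87 CPM in WT, 6.02, 6.94 and 7.15 CPM in Tet2+/- and 8.52, 15.2 and 8.43 CPM in the double mutant, so the latter lay above Tet2+/- in every library (log2 difference 0.68, SE 0.32, adjusted p = 0.484 by edgeR).

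**Figure D3:**
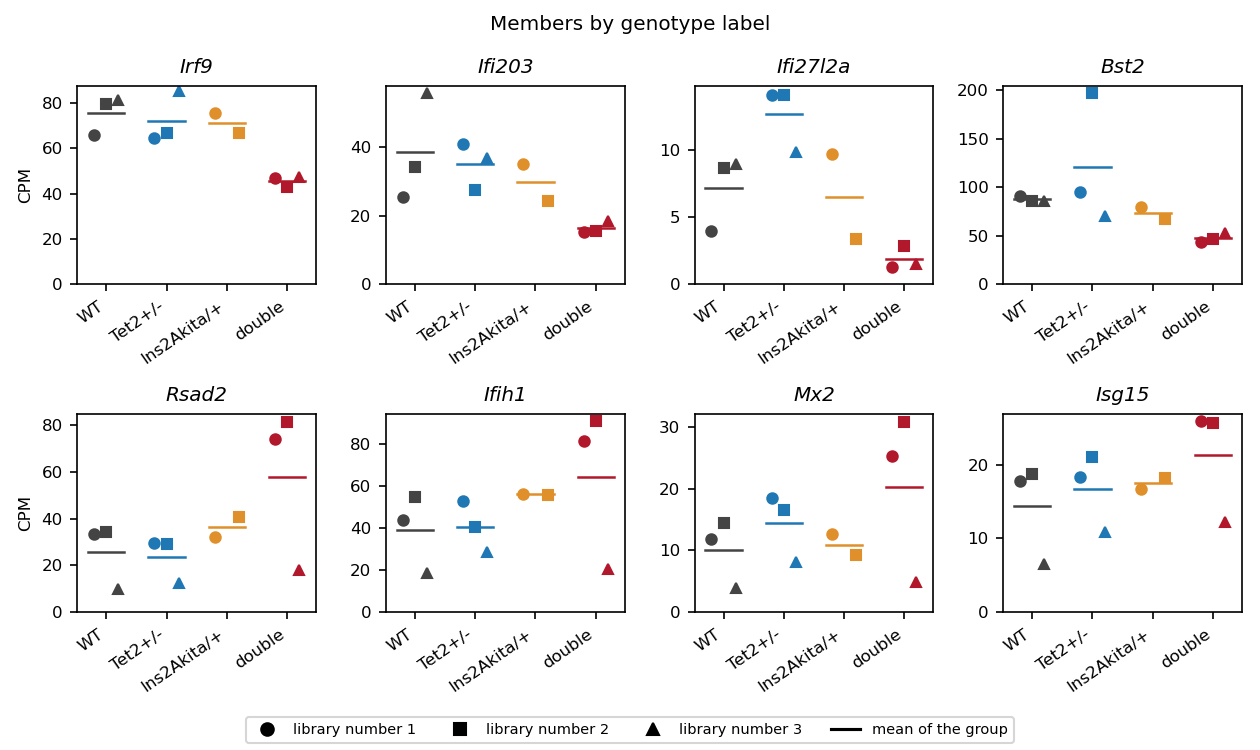
CPM of 8 members in each library (points; circle, square and triangle for library numbers 1, 2 and 3) by genotype, with the group mean as a line and a linear axis from 0. In the top row Irf9, Ifi203, Ifi27l2a and Bst2 are lower in each double mutant library than in each library of the other genotypes, and in the bottom row Rsad2, Ifih1, Mx2 and Isg15 are high in double mutant libraries 1 and 2 and low in those numbered 3.

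In the ISG15 pathway no alternative called a member. Isg15, the ubiquitin-like modifier, was at 17.8, 18.8 and 6.53 CPM in WT, 18.3, 21.1 and 10.8 CPM in Tet2+/-, 16.7 and 18.3 CPM in Ins2Akita/+ and 26.0, 25.8 and 12.2 CPM in the double mutant. Its difference from WT was 0.55, 0.45 and 0.89 within numbers 1 to 3 on the log2 scale, and 0.57 in the test (SE 0.44, adjusted p = 0.825 by edgeR). Herc6, the mouse ligase that attaches ISG15, was at 15.8, 21.1 and 26.1 CPM in WT and 15.6, 15.2 and 19.8 CPM in the double mutant (log2 change -0.32, SE 0.30). Usp18, which reverses that attachment, followed library number as described above (log2 difference -0.79, SE 1.21).

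Of the 6 interferon-inducible GTPases, Irgm1 was lower in the double mutant. Irgm1, a regulator of autophagy and of the other immunity-related GTPases (ENSMUSG00000046879.6, protein coding, chromosome 11, 48861968 to 48871683, minus strand), was at 37.0, 36.5 and 43.1 CPM in WT, 24.0, 33.0 and 47.4 CPM in Tet2+/-, 33.6 and 31.1 CPM in Ins2Akita/+ and 22.4, 17.5 and 27.0 CPM in the double mutant. Double mutant and WT did not overlap. The difference from WT was -0.80 (SE 0.27, adjusted p = 0.359 by edgeR) and was called without number 3 (-0.88, SE 0.19, adjusted p = 0.0472). Gbp3, a guanylate-binding protein, spread with library number, at 36.0, 37.0 and 12.2 CPM in WT and 41.8, 32.5 and 22.5 CPM in the double mutant (log2 change 0.18, SE 0.59). Its neighbour Gbp7, 9.88 kb away, went the other way with library number, at 17.4, 18.8 and 29.3 CPM in WT and 21, 14.6 and 33.2 CPM in the double mutant.

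Of the PYHIN genes, which encode nuclear sensors of DNA, Ifi203 was lower in the double mutant. Ifi203 (ENSMUSG00000039997.16, protein coding, chromosome 1, 173920407 to 173942672, minus strand) was at 25.4, 34.1 and 55.7 CPM in WT, 40.9, 27.5 and 36.9 CPM in Tet2+/-, 35 and 24.3 CPM in Ins2Akita/+ and 15.2, 15.4 and 18.5 CPM in the double mutant. Every double mutant library lay below all others. The log2 difference was -1.23 from WT (SE 0.31, adjusted p = 0.207 by edgeR), -1.10 from Tet2+/- (SE 0.31, adjusted p = 0.213) and -0.86 from Ins2Akita/+ (SE 0.34, adjusted p = 0.681). DESeq2 called it lower than WT (-1.2, adjusted p = 0.0186). Against Tet2+/- it was called with the replicate block (-1.10, SE 0.24, adjusted p = 0.0420 by edgeR), by DESeq2 (-1.08, adjusted p = 0.0378) and without number 3 (-1.16, adjusted p = 0.0317 by edgeR). Exons of its relative Mndal overlap those of Ifi203 on the same strand, so the split of reads between both is uncertain. Ifi204, another member of the family, ranged from 2.42 to 7.02 CPM in WT and from 3.66 to 5.67 CPM in the double mutant (log2 change 0.09, SE 0.51).

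Ifi27l2a, a small membrane protein gene of the ISG12 family (ENSMUSG00000079017.3, protein coding, chromosome 12, 103442167 to 103443680, minus strand), had the largest difference of any member in the double mutant. It was at 3.98, 8.66 and 8.95 CPM in WT, 14.2, 14.1 and 9.90 CPM in Tet2+/-, 9.73 and 3.36 CPM in Ins2Akita/+ and 1.25, 2.88 and 1.52 CPM in the double mutant. Every double mutant library lay below, and every Tet2+/- library above, all others. The difference of the double mutant was -1.92 from WT (SE 0.51, adjusted p = 0.232 by edgeR), -2.75 from Tet2+/- (SE 0.52, adjusted p = 0.0819) and -1.79 from Ins2Akita/+ (SE 0.55, adjusted p = 0.507). Against Tet2+/- it was called by DESeq2 (-2.73, adjusted p = 3.55e-05), with the replicate block (-2.76, adjusted p = 0.0286 by edgeR), without number 3 (-2.77, adjusted p = 0.0370) and with no filter on low counts (-2.76, adjusted p = 0.0147). DESeq2 called it against WT too (-1.89, adjusted p = 0.0180). Its neighbour Ifi27, 1.93 kb away, was at 18.3, 26.9 and 46.6 CPM in WT and 17.4, 22.3 and 24.1 CPM in the double mutant (-0.53, SE 0.36). Neither of the most abundant of this group was called. Trim30a, a negative regulator of NF-kB signalling, was at 19.8, 28.9 and 31.9 CPM in WT and 27.3, 46.6 and 45.4 CPM in the double mutant (0.57, SE 0.28). Parp14, which adds ADP-ribose to proteins, was at 25.6, 37.4 and 24.6 CPM in WT and 30.2, 27.5 and 23.4 CPM in the double mutant (-0.11, SE 0.23). The remaining members Xaf1, Ifi35 and Phf11d lay between -0.81 and -0.25.

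Counted over all members, groups that did not overlap lay mostly on the lower side in the double mutant. Against WT 8 members, 20.5% of the 39, lay lower in every library (8.57% of all genes did) and 1, 2.56%, higher (9.55%). Against Tet2+/- 8 lay lower (20.5% of members, 6.68% of all genes) and 2 higher, Ddx58 and Oasl2 (5.13% and 8.48%). Against Ins2Akita/+ 9 lay lower (23.1% and 19.9%) and 1 higher (2.56% and 16.6%). Compared within library numbers, 13 members lay above WT in all 3 numbers (22.2% of all genes did) and 12 below (25.7%). Against Tet2+/- 6 lay above in all 3 (20.0% of all genes) and 16 below (22.3%). The differences between these shares were not tested. The 8 lower than in WT were Irf9, Stat2, Bst2, Irgm1, Ifi47, Ifi203, Ifi27l2a and Phf11d. The median log2 difference of the 39 members was 0.07 from WT, -0.23 from Tet2+/- and 0.01 from Ins2Akita/+, against -0.05, -0.08 and 0.01 over all genes. With single libraries left out these medians ranged from -0.12 to 0.11, from -0.24 to -0.11 and from -0.07 to 0.10. These comparisons share the double mutant libraries.

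Tet2+/- against WT asks what the Tet2 label alone goes with. The members' median was 0.10, against 0.03 over all genes, and 4 members lay higher in every Tet2+/- library (Zbp1, Ifit3, Ifi44 and Ifi27l2a; 2.07% of all genes did) and 0 lower (2.18%). Ifi44, a cytoplasmic interferon-induced protein (ENSMUSG00000028037.13, protein coding, chromosome 3, 151730922 to 151749960, minus strand), was at 0.45, 1.15 and 0.67 CPM in WT, 2.89, 4.15 and 2.56 CPM in Tet2+/-, 0.91 and 0.86 CPM in Ins2Akita/+ and 1.15, 0.40 and 0.13 CPM in the double mutant. Its difference of 2.07 (SE 0.63, adjusted p = 1 by edgeR) was not called by any alternative. Against Tet2+/- the double mutant was lower (-2.48, SE 0.64, adjusted p = 0.181 by edgeR) and was called by DESeq2 (-2.47, adjusted p = 0.00724), with the replicate block (-2.57, adjusted p = 0.0452 by edgeR) and without number 3 (-2.17, adjusted p = 0.0480). Ifit3 was at 2.57, 2.19 and 1.51 CPM in WT and 3.65, 4.33 and 3.82 CPM in Tet2+/- (log2 difference 0.91, SE 0.34, adjusted p = 1 by edgeR), and its near-identical copy Ifit3b makes its counts uncertain.

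Ifi44 lies on the chromosome of Tet2, 18.2 Mb from it, and 2 further interferon-responsive genes there had counts in no WT or Ins2Akita/+ library. Gbp2b, a guanylate-binding protein gene 9.05 Mb from Tet2 (chromosome 3, 142594847 to 142619179), was at 0 counts in all 5 of those libraries, at 8.67, 11 and 1.88 CPM in Tet2+/- and at 4.21, 0.40 and 4.50 CPM in the double mutant. With a floor of 3 counts per library, its mean in Tet2+/- was at least 44.7-fold higher than in WT. Ifi44l (chromosome 3, 151758737 to 151762892) was at 0 counts in the same 5 libraries and in double mutant libraries 2 and 3, at 2.13, 4.69 and 1.64 CPM in Tet2+/- and at 0.75 CPM in double mutant 1. Its mean in Tet2+/- was at least 17.6-fold higher than in WT. DESeq2 called Gbp2b in Tet2+/- against WT (adjusted p = 9.5e-07) and in the double mutant against WT (adjusted p = 1.83e-05), and edgeR did not (adjusted p = 0.531 and 0.187). The members Gbp2, Gbp3 and Gbp7 lie next to Gbp2b, 9.08, 9.01 and 8.99 Mb from Tet2, and their differences between Tet2+/- and WT were 0.33 (SE 0.36), 0.58 (SE 0.59) and 0.41 (SE 0.45). Whether the distance from Tet2 bears on these values was not tested. These genes were singled out after their values were seen.

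Ins2Akita/+ against WT asks what the Akita label alone goes with, and here the members lay on both sides of 0. WT has a library numbered 3 and Ins2Akita/+ has none, so genotype and library number are mixed in this comparison. The same holds for the double mutant against Ins2Akita/+ and for the interaction. The median of the 39 was 0.04, against -0.01 over all genes, and ranged from -0.13 to 0.08 with single libraries left out. Some members differed in opposite directions by library number: the log2 difference within numbers 1 and 2 was 3.42 and -2.03 for Oas2, and 1.27 and -1.34 for Ifi27l2a. One member, Ifih1, lay higher in both Ins2Akita/+ libraries (4.78% of all genes did), and 4 lay lower (Bst2, Irgm1, Ifi47 and Phf11d; 6.86%). The smallest p was that of Phf11d, a zinc finger gene, at 0.856, 0.996 and 2.24 CPM in WT and 0.847 and 0.528 CPM in Ins2Akita/+ (log2 difference -0.98, SE 0.50, adjusted p = 1 by edgeR). The next were Ifi27 (-0.54, SE 0.41), Oasl2 (0.39, SE 0.36) and Ifi203 (-0.37, SE 0.34). Of the WT libraries, number 3 was the highest for Phf11d, Ifi27 and Ifi203 and the lowest for Oasl2. Within numbers 1 and 2 the log2 differences were 0.53 and -0.78 for Ifi27 and 0.44 and -0.03 for Oasl2. They were 0.46 and -0.49 for Ifi203 and -0.01 and -0.80 for Phf11d. The interaction was most negative for Ifi44 (-2.70, SE 0.94) and Ifi27l2a (-2.61, SE 0.73), followed by Bst2 (-1.10, SE 0.49), each with an adjusted p of 0.922 or more by edgeR.

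The rest of the pathway was read from 5 lists with 112 genes in the table, of which 100 were tested. None was called by edgeR with all libraries in any comparison. In the double mutant against WT 9 had an unadjusted p under 0.05 and a higher level, and 11 a lower one (8.79% of all genes passed either way). DESeq2 called 4 higher and 5 lower (2.61% of all genes), and limma voom called 0. With the replicate block 4 were called higher (Ifnb1, Ifnlr1, Myd88 and Ikbke) and 3 lower (Mndal, Gbp4 and Gbp8), where 1.63% of all genes were called.

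Of the ligands, Ifnb1, the gene of interferon beta (chromosome 4, 88522025 to 88522774), was low in WT and higher in every double mutant library. It was at 0.35, 0.20 and 1.39 CPM in WT, 0.33, 1.01 and 11.1 CPM in Tet2+/-, 0.73 and 0.53 CPM in Ins2Akita/+ and 3.61, 4.18 and 9.76 CPM in the double mutant. The difference from WT was 3.19 (SE 1.2, adjusted p = 0.436 by edgeR), 3.60 with the replicate block (SE 0.67, adjusted p = 0.0423) and 3.79 without number 3 (SE 0.54, adjusted p = 0.0159). Both later values were called. The interferon alpha genes were read almost wholly from the libraries numbered 3. The 11 of them in the table summed to 84 counts in WT 3, 586 in Tet2+/- 3 and 154 in double mutant 3, and to between 4 and 15 in the other 8 libraries. Ifna2 (chromosome 4, 88682881 to 88683912) was at 2.66, 10.3 and 4.25 CPM in these 3 libraries and at 0.35 CPM or less in the others. These genes are close copies of each other, so the split of counts among them is uncertain. Ifng, the gene of interferon gamma, was at 10.7, 10.7 and 8.47 CPM in WT and 6.82, 6.02 and 11 CPM in the double mutant.

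**Figure D4:**
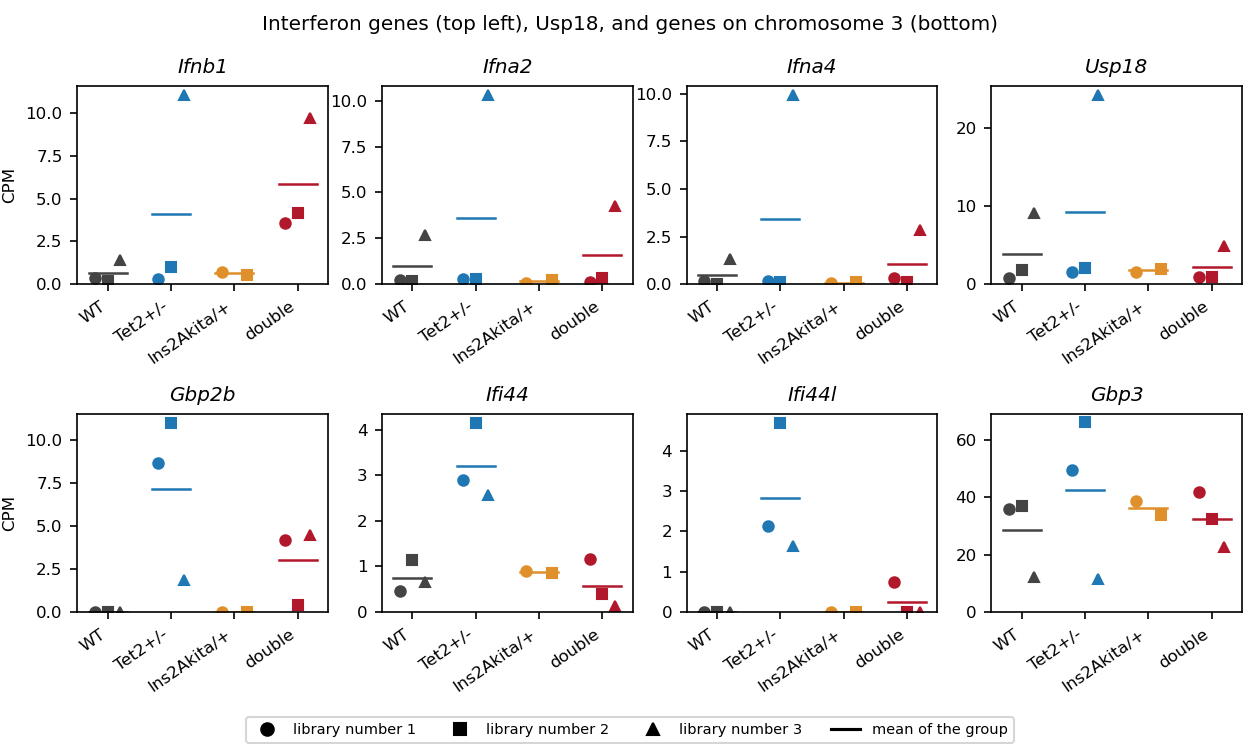
CPM of interferon genes (Ifnb1, Ifna2, Ifna4), of Usp18 and of 4 genes on chromosome 3 in each library (points; triangles are number 3) by genotype, with group means as lines and linear axes from 0. The triangles are highest for Ifna2, Ifna4 and Usp18 in each group that has one, and Gbp2b and Ifi44l are at 0 in WT and Ins2Akita/+.

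Of the receptors, Ifnlr1, the specific chain of the interferon lambda receptor, was at 10.3, 11.6 and 1.75 CPM in WT and 29.0, 49.6 and 15.1 CPM in the double mutant. It was called with the replicate block (2.27, SE 0.44, adjusted p = 0.0463 by edgeR) and not without it (1.99, SE 0.84, adjusted p = 0.522). Its partner Il10rb was at 34.8, 32.3 and 27.8 CPM in WT and 48.2, 59.3 and 41.8 CPM in the double mutant (log2 change 0.65, SE 0.22, adjusted p = 0.356 by edgeR). The type I receptor gene Ifnar1 was at 123, 116 and 60.4 CPM in WT and 112, 111 and 43.8 CPM in the double mutant. Among the inducers, Myd88, the adaptor of most Toll-like receptors, was at 86.5, 95.4 and 49.1 CPM in WT and 149, 191 and 134 CPM in the double mutant. It was called with the replicate block (1.10, SE 0.18, adjusted p = 0.0334 by edgeR) and without number 3 (0.90, SE 0.16, adjusted p = 0.0260), and not otherwise (1.04, SE 0.33, adjusted p = 0.327). Samhd1, which depletes nucleotides, ranged from 110 to 134 CPM in WT and from 129 to 199 CPM in the double mutant.

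Other interferon-stimulated genes outside the 39 went both ways too. Ifitm1, a membrane protein that blocks viral fusion, was at 51.1, 35.7 and 48.8 CPM in WT and 83.7, 172 and 519 CPM in the double mutant. It was at 83.1, 95.5 and 33.7 CPM in Tet2+/-, which overlapped the double mutant, and at 35.4 and 39.6 CPM in Ins2Akita/+. The double mutant differed from WT by 2.52 on the log2 scale (SE 0.62, adjusted p = 0.201 by edgeR). That difference was called by DESeq2 (2.54, adjusted p = 0.0034) and without number 3 (1.56, SE 0.33, adjusted p = 0.0467 by edgeR). Mndal, the relative that overlaps Ifi203, was at 35.9, 44.6 and 47.9 CPM in WT and 21.6, 16.9 and 12.9 CPM in the double mutant (log2 change -1.32, SE 0.26, adjusted p = 0.109 by edgeR), and was called with the replicate block (-1.36, SE 0.22, adjusted p = 0.0324). Gbp4, a target of interferon gamma, was at 20.8, 16.2 and 12.3 CPM in WT and 9.32, 6.17 and 5.32 CPM in the double mutant. It was called with the replicate block (-1.25, SE 0.21, adjusted p = 0.0334 by edgeR), as was Gbp8 (-1.61, SE 0.30, adjusted p = 0.0423), whose annotated exons overlap those of Gbp4.

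Marker lists of other cells in the fraction moved with genotype and with library number. Summed CPM of 12 plasmacytoid dendritic cell markers, Bst2 included, was 774 to 857 in WT, 547 to 1243 in Tet2+/-, 737 to 743 in Ins2Akita/+ and 257 to 393 in the double mutant. That of 12 B lineage markers was 174 to 212 in WT and 51.3 to 77.2 in the double mutant, that of 11 conventional dendritic cell markers was 579 to 932 in WT and 316 to 415 in the double mutant, and that of 12 maturing neutrophil markers was 2149 to 23490 in WT and 46340 to 71510 in the double mutant. The score of 6 neutrophil primary granule markers was -2.35 in WT 3 and -3.60 in Tet2+/- 3, against 0.32 to 1.33 in the other 9 libraries. No marker found for any list was at 0 counts in all 11 libraries. The 10 markers of stem and progenitor cells summed to 823 to 978 CPM in WT and 671 to 1082 CPM in the double mutant. The part of these cells in the values of Irf9, Bst2, Rsad2 and the other members was not tested.

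**Figure D5:**
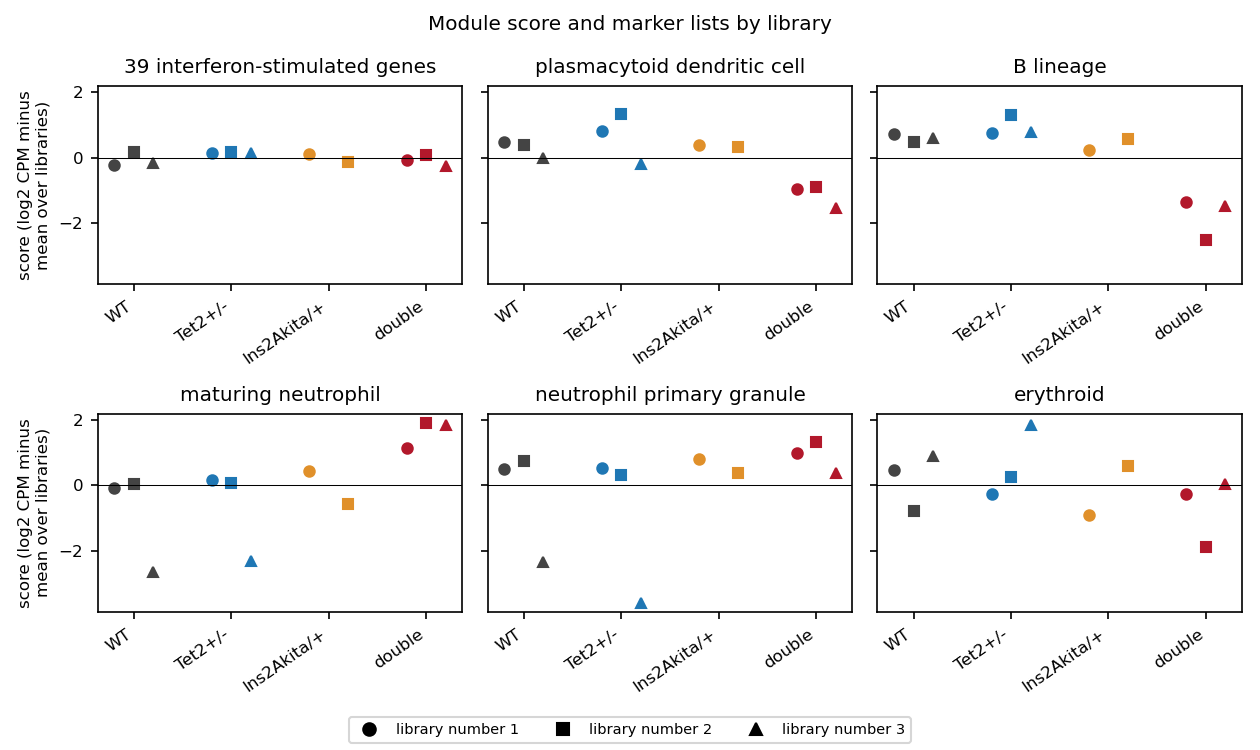
Mean log2 CPM minus its mean over libraries (y axis) for the 39 members and 5 marker lists, in each library (points; triangles are number 3) by genotype. The members lie between -0.25 and 0.18, while plasmacytoid dendritic cell markers (without Bst2) and B lineage markers are lowest in the double mutant, and both neutrophil lists are far lower in WT 3 and Tet2+/- 3.

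Over the 11 libraries the members formed sets that varied together, which share genotype, depth and library number, and the correlations are given as a description. Log2 CPM of Rsad2 followed Ifih1 (Pearson r = 0.94) and Isg15 (r = 0.94), and Ifih1 followed Oasl1 (r = 0.95). Irf9 followed Irgm1 (r = 0.89) and Ifi203 (r = 0.88) and ran against Rsad2 (r = -0.64). Neighbouring genes did not always vary together: r was 0.91 for Oas2 and Oas3, 0.40 for Rsad2 and Cmpk2, -0.14 for Ifit1 and Ifit2 and -0.80 for Gbp3 and Gbp7. In the double mutant against WT, 12 of the 17 members with an ISRE core in the promoter window lay above 0 and 5 below (median 0.30), and of the 12 members with a window and no core 3 lay above and 9 below (median -0.29). Of all 15630 genes 6889 lay above 0 and 8741 below. Against Tet2+/-, 9 lay above 0 and 8 below among members with the core (median 0.01). Among those without it 4 lay above and 8 below (median -0.36), beside 6818 above and 8812 below among all genes. Members with no promoter entry are left out of these counts. Whether the core bears on the direction of a member was not tested.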

How the data were processed

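Gene expression came from a table of raw read counts per gene, whole numbers that the authors deposited without normalization (read from the values and the header). The submitters' processing notes name bcl2fastq, Trimmomatic 0.32, TopHat2 2.1.1 and build GRCm38. For the counter, annotation and strand setting the answer is "not given in the sources used here". Genes with overlapping exons (13 of the 39 members) and close copies are therefore uncertain. Names and positions came from GENCODE M21, in which 30875 of 31060 identifiers matched without their version. Of 12 labelled samples 11 matched a column. The number of other columns named like a sample was 1. It is named as an Ins2Akita/+ library numbered 3 would be, no label matches it, and it was not used; the labelled double mutant sample without a column was not analysed here.

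Counts were tested in edgeR 4.0.16 (R 4.3.3) with filterByExpr, TMM factors, 1 robust quasi-likelihood fit of all 4 groups and Benjamini-Hochberg adjustment over 15630 genes. The test was checked on simulated counts, drawn independently for each library. These held no shared difference of the libraries numbered 3, so the check does not cover that feature of the data. The standard error is the size of the log2 difference over the square root of F. Alternatives were RLE factors, DESeq2 1.42.0, limma voom 3.58.1, no filter on low counts, the replicate number as a block, all libraries numbered 3 left out, and each library left out in turn. The closest pair of libraries within a genotype had a chi-square per gene of 15.6, well over counting noise. A gene at 0 can lie as high as 3 counts per library (0.142 to 0.19 CPM), a limit for counting error alone.

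The members and the lists were chosen with earlier results of these data known, so they give no independent support. By rule, values are given for the regulators, the 2 most abundant members of each role, the members called or with the 4 smallest p in a comparison (mean of at least 1 CPM), and the 2 smallest p in each pathway list. Members called in an alternative, interferon alpha genes, Ifnar1, Usp18 and genes of chromosome 3 were added after their values were seen.

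The labels give the replicate numbers but no meaning for them. The correlation of deviations from the group mean, between libraries with one number, was 0.485 to 0.791 for WT with Tet2+/-, 0.340 to 0.589 for WT with the double mutant, and 0.318 to 0.533 for Tet2+/- with the double mutant. These groups were therefore treated as paired. A number 3 that stands apart gives such correlations by itself, so the pairing of numbers 1 and 2 is an assumption. Numbers 1 and 2 were not always closest to their own number. WT 2 correlated at 0.691 with Tet2+/- 1 and at 0.485 with Tet2+/- 2. With the double mutant, WT 2 correlated at 0.372 with number 1 and at 0.541 with number 2.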

Additional observations from a re-analysis of the deposited data

How the results depend on the processing

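With RLE factors and limma voom no member was called in any comparison, as in the reported test. For the double mutant against WT the count of members called was 3 by DESeq2, 2 with the replicate block and 5 without all libraries numbered 3. For the double mutant against Tet2+/- it was 5 by DESeq2, 1 with no filter on low counts, 5 with the replicate block, 6 without all libraries numbered 3 and 0 to 1 with single libraries left out, the 1 being Bst2 without Tet2+/- replicate 3. For the double mutant against Ins2Akita/+ it was 3 without all libraries numbered 3. The members' median log2 difference in the double mutant against WT ranged from -0.12 to 0.11 with single libraries left out. Single members were tallied only where they had the smallest p of a comparison in the reported test. Of their alternative values 19 passed the threshold that the reported value missed and 389 stayed on its side. All 19 were lower in the double mutant, and none that was called lay in the opposite direction to the reported value. The higher calls of Rsad2, Ifih1 and Mx2, and the calls of Ifi203 against Tet2+/-, fall outside this tally. The cause of the differences between settings was not tested. Depth limits the rarest members: Ifi44 in double mutant 3, at 0.13 CPM, lay under the level of 3 counts there (0.19 CPM). Fewer libraries remain without number 3, and Ins2Akita/+ has n = 2 throughout.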
